A study of Mus musculus with 7 samples.

Results

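The genes described here are 10 genes of the NF-κB pathway in mouse embryonic fibroblasts (MEFs), taken from the table of stress conditions by gene symbol. They are the subunit genes Nfkb1, Nfkb2, Rela and Relb, the IκB family genes Nfkbia, Nfkbie and Nfkbiz, and the target genes Tnfaip3, Birc3 and Icam1. Each symbol stood on 1 row, so that 10 of the 49382 genes in the table are members. RNA-seq was performed on 7 libraries of wild type MEFs, 1 untreated control and 1 library for each of 6 conditions. Glucose depletion and glutamine depletion lasted 10 hours in medium lacking that nutrient, and hypoxia was 10 hours at 0.1% oxygen. ER stress was 10 hours of 1 μM thapsigargin, which blocks the calcium pump of the endoplasmic reticulum. Oxidative stress was 3 hours of 10 μM sodium arsenite, a compound that reacts with thiols, and osmotic stress was 3 hours of 100 mM NaCl added to the medium. All cells, the control included, were primary cultures from E13.5 to E14.4 embryos whose head and fetal liver had been removed, used at passage 3 to 7. The study's methods describe sorting of MEFs against macrophage markers unless noted otherwise. Whether the 7 libraries came from 1 preparation or from several, and whether embryos were pooled, is not stated in the labels. The labels give no culture time for the control, and the 3 hour and 10 hour treatments differ in both agent and time, which cannot be told apart.

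NF-κB is a family of dimeric transcription factors that drive inflammatory, survival and adhesion genes. In resting cells the dimers are held in the cytoplasm by IκB proteins. In the canonical pathway the IκB kinase marks IκBα for degradation and frees dimers of RelA and p50, whereas in the noncanonical pathway the kinase NIK triggers the processing of p100 to p52, which pairs with RelB. Several genes of the pathway are themselves induced by NF-κB and restrain it. In fibroblasts the pathway is known for its response to TNF and IL-1.

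Expression was deposited as TPM, the share of each transcript in a library after correction for its length, scaled to a total of 1000000, so that levels of different genes may be compared. There was 1 library per condition, so no replicate spread exists against which a difference could be judged, and no test was run. TPM carries no count of reads, and the depth behind each value is unknown. A log2 change is the difference of log2(TPM + 1) between a condition and the control library, and a gene past 1 on this scale is counted as more than 2-fold higher or lower. The scale understates the change of genes near 1 TPM. All 10 members passed the filter, a level that averaged 2 TPM or more across the libraries, as did 12909 genes in all. The number of genes above 0 TPM ran from 19819 to 21154 per library. The labelled cell type fitted its markers, with all 9 fibroblast markers at 1 TPM or more in every library. Their summed level was 4204 TPM in ER stress and between 7320 and 8846 TPM in the other 6 libraries. The 7 leukocyte markers summed to between 7.16 TPM in ER stress and 15.7 TPM in osmotic stress, most of it Cd68. The number at 1 TPM or more ran from 1 in ER stress to 4 in osmotic stress. Csf1r was at 0.744 to 2.25 TPM and Lyz2 at 0.629 to 2.23 TPM. Fcgr1 was at 0 TPM in 6 libraries, and Adgre1 and Ptprc were each below 0.3 TPM in every library. Itgam had 2 rows, and the sum holds the row with the higher mean, which reached 1.99 TPM in osmotic stress. The 5 endothelial markers summed to at most 8.04 TPM, and the epithelial, muscle and erythroid lists each to less than 1 TPM in every library. In bulk samples fewer cells of a type and less RNA per cell cannot be told apart.

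Promoter stretches are shown for the members in which the κB consensus, a letter pattern of sites that NF-κB can bind, was found. RefSeq promoter windows on GRCm38.p6, which hold 250 bases before and 50 bases after a start site, were matched by symbol for 7 of the 10 members. Nfkb1, Relb and Nfkbiz had no entry. The κB consensus was found on either strand in windows of 4 of these members, namely Nfkb2, Nfkbia, Nfkbie and Tnfaip3, while 8.46% of all 32851 windows and 9.55% of the 27025 genes with a window held it. Nfkb2 has 3 start sites in the table and so more chances of a match. Tnfaip3 has a further start site, and no match was found in the window of that site. In the stretches that follow, written 5′ to 3′ on the strand of the gene, capitals mark the κB consensus. The first 3 are the 150 bases before the start site, at chr12:55492648-55492797 (minus strand) for Nfkbia, chr17:45555550-45555699 (plus strand) for Nfkbie and chr10:19015411-19015560 (minus strand) for Tnfaip3. In the stretch of Tnfaip3, 13 bases lie in annotated exons. The stretch of Nfkb2 is the 30 bases at chr19:46304688-46304717 (plus strand), within exons annotated for other transcripts of that gene.
Nfkbia: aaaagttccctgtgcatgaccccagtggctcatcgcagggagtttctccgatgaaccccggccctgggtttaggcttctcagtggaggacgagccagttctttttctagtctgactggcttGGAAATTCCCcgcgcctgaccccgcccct
Nfkbie: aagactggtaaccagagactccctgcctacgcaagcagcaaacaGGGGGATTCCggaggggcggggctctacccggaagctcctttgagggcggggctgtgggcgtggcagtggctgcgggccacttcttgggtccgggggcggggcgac
Tnfaip3: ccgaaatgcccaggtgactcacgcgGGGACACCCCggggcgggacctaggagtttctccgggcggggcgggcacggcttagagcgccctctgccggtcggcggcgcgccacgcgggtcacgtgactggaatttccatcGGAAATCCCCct
Nfkb2: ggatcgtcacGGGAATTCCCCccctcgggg

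The consensus began 29 bases before the start site in Nfkbia, 106 bases before it in Nfkbie, and 125 and 12 bases before it in Tnfaip3. In Nfkb2 the capitals are 2 overlapping matches 39 and 38 bases before the first start site. A further match, outside the stretch shown, began 11 bases before that site, and the windows of the other start sites of Nfkb2 also held matches. A looser κB pattern, GGGNNNNNCC on either strand, was in windows of all 7 members but also in 50.8% of all windows. The AP-1 heptamer TGAGTCA was in the windows of Nfkbie and Tnfaip3 (5.20% of all windows), and the cAMP response element TGACGTCA in none (1.79%). The letters of the TATA box, TATAAA, were in the windows of Icam1, Tnfaip3 and Nfkbia (13.6%). They began 13 bases after the start site in Icam1 and 225 bases before it in Tnfaip3. In Nfkbia they lay 19 bases after it, on the opposite strand. A match describes letters and does not show that a factor was bound. The 4 genes with the consensus did not share a pattern of expression, as the following values show.

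**Figure D1:**
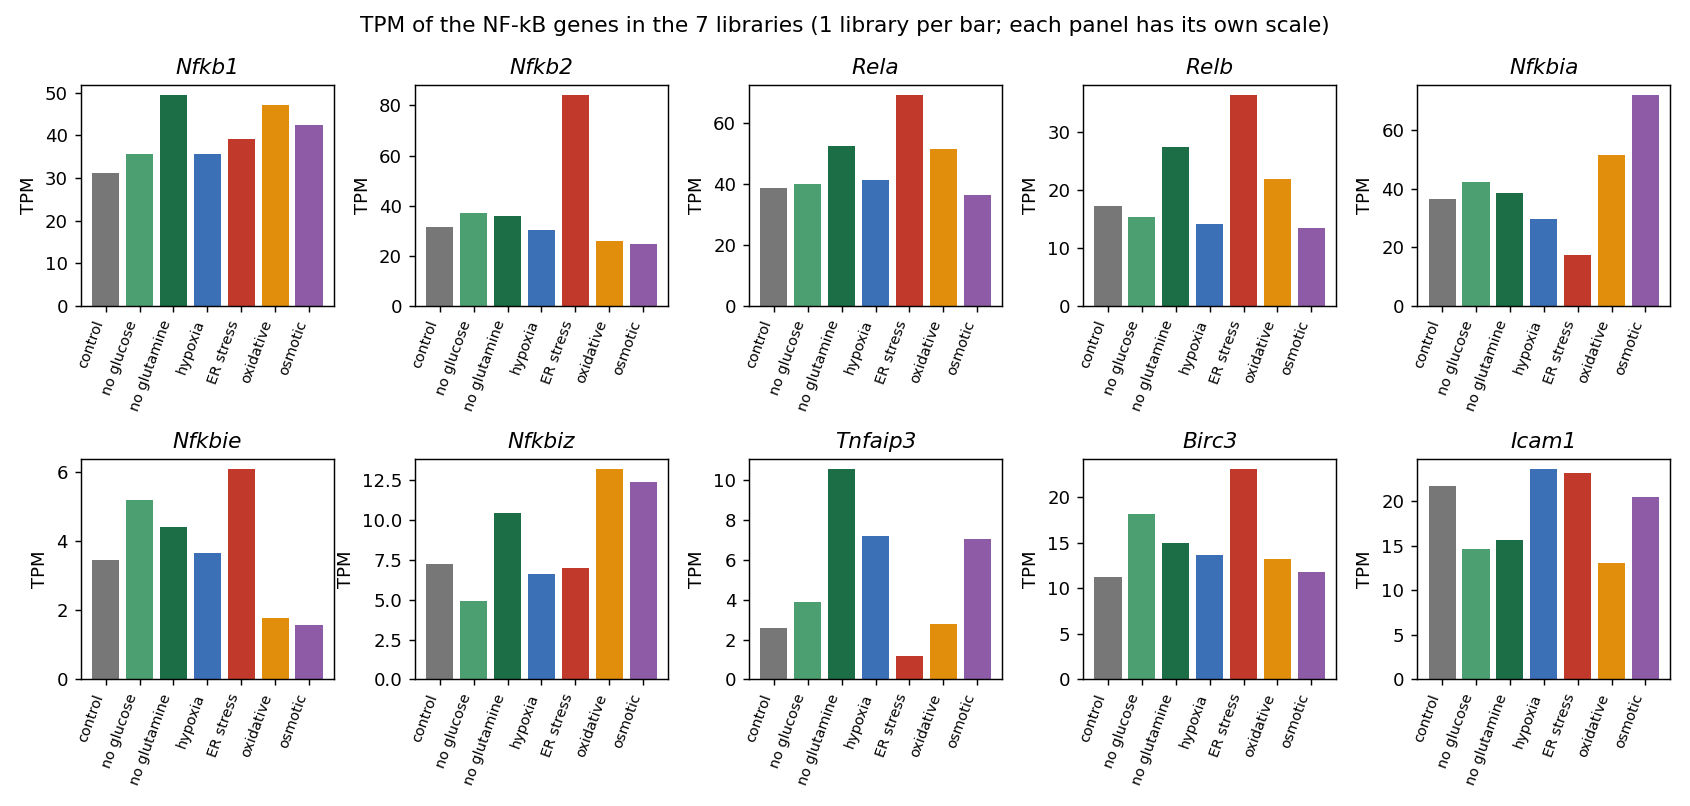
TPM of the 10 NF-κB genes (vertical axes, each from 0 on its own scale) in the 7 libraries, 1 bar per library and no replicates. ER stress is the highest bar for Nfkb2 at 84.0 TPM and the lowest for Nfkbia at 17.5 TPM, and Tnfaip3 is highest in glutamine depletion at 10.5 TPM.

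Nfkb2, Relb and Rela each had their highest level in ER stress, and of these the noncanonical pair Nfkb2 and Relb passed 2-fold against the control. Nfkb2, at chromosome 19 from 46304320 to 46312385 in GRCm38, encodes p100 and its product p52. It was at 31.6 TPM in the control, 37.1 in glucose depletion, 35.9 in glutamine depletion, 30.3 in hypoxia, 84.0 in ER stress, 25.7 in oxidative stress and 24.8 in osmotic stress. The ER stress library lay above the range of the other 6, 24.8 to 37.1 TPM, and was 2.66-fold the control (log2 change 1.38, above that of 95.5% of the 12909 genes). Exons of Nfkb2 overlap those of Psd on the opposite strand, and Psd was at 4.13 TPM at most. Relb, at chromosome 7 from 19606217 to 19629438, encodes the partner of p52. Its level was 17.2 TPM in the control, 15.4 in glucose depletion, 27.4 in glutamine depletion, 14.1 in hypoxia, 36.3 in ER stress, 22.0 in oxidative stress and 13.4 in osmotic stress. ER stress was again above all other libraries, with a log2 change of 1.03, and glutamine depletion stood next at 0.64. With a pseudocount of 5 TPM the value of Relb in ER stress was 0.89, below 2-fold. The summed fibroblast markers, given above, were lowest in the same ER stress library, and their part in these values was not tested.

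The canonical subunits varied less. Rela, at chromosome 19 from 5637483 to 5648130, encodes the activating subunit RelA. It was the most abundant member in the control at 38.8 TPM and reached 40.2 in glucose depletion, 52.4 in glutamine depletion, 41.3 in hypoxia, 69.2 in ER stress, 51.4 in oxidative stress and 36.4 in osmotic stress. Its largest log2 change was 0.82, in ER stress, and no condition passed 2-fold. Nfkb1, at chromosome 3 from 135584655 to 135691547, encodes p105 and its product p50. It was at 31.1 TPM in the control, 35.6 in both glucose depletion and hypoxia, 49.4 in glutamine depletion, 39.2 in ER stress, 47.2 in oxidative stress and 42.5 in osmotic stress. All 6 conditions stood above the control, by log2 changes of 0.19 to 0.65, and this rests on the 1 control value. The 4 subunits summed to 119 TPM in the control, 229 in ER stress and 165 in glutamine depletion, and to between 117 and 146 in the other 4 libraries.

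The IκB genes did not share a pattern. Nfkbia was lowest in ER stress and highest in osmotic stress, and Nfkbie was the reverse. Nfkbia, at chromosome 12 from 55489410 to 55492647, encodes IκBα, the short-lived inhibitor that NF-κB itself induces. It was at 36.7 TPM in the control, 42.4 in glucose depletion, 38.6 in glutamine depletion, 29.7 in hypoxia, 17.5 in ER stress, 51.5 in oxidative stress and 72.0 in osmotic stress. ER stress gave the lowest level, 0.476 times the control with a log2 change of -1.03, and 10.5% of the 12909 genes had a lower change there. Osmotic stress gave the highest, 1.96-fold the control with a log2 change of 0.95, above that of 96.7% of all genes. Centred on the median of all genes, which was -0.12 in osmotic stress, this change was 1.08 and past 2-fold, while with a pseudocount of 5 TPM the ER stress value was -0.89 and short of it. Nfkbie, at chromosome 17 from 45555703 to 45563169, encodes IκBε, a further inhibitor induced by NF-κB. It was at 3.45 TPM in the control, 5.20 in glucose depletion, 4.41 in glutamine depletion, 3.66 in hypoxia, 6.08 in ER stress, 1.78 in oxidative stress and 1.58 in osmotic stress. Both 3 hour libraries stood below all 10 hour libraries and the control, with log2 changes of -0.68 and -0.78, and neither passed 2-fold. In osmotic stress its TPM was 0.460 times the control, so that a pseudocount of 0.1 TPM put the change at -1.07. Nfkbiz, at chromosome 16 from 55811375 to 55838899, encodes IκBζ, a nuclear IκB protein that acts as a coactivator of some NF-κB targets. Its levels were 7.24 TPM in the control, 4.90 in glucose depletion, 10.4 in glutamine depletion, 6.59 in hypoxia, 6.95 in ER stress, 13.2 in oxidative stress and 12.4 in osmotic stress. The 3 hour libraries held the highest values, with log2 changes of 0.78 and 0.70, and glutamine depletion stood next at 0.47.

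Tnfaip3 varied most of all members, by 9.03-fold between its highest and lowest library. At chromosome 10 from 19000910 to 19015657, it encodes A20, a ubiquitin-editing enzyme that shuts off signalling from the TNF receptor. Its TPM was 2.57 in the control, 3.89 in glucose depletion, 10.5 in glutamine depletion, 7.21 in hypoxia, 1.17 in ER stress, 2.79 in oxidative stress and 7.07 in osmotic stress. It was more than 2-fold higher in glutamine depletion, hypoxia and osmotic stress, with log2 changes of 1.69, 1.20 and 1.17, above those of 98.5%, 97.1% and 97.7% of the 12909 genes. In ER stress it was 0.454 times the control (log2 change -0.72), the lowest of the 7 libraries. These are low levels, and with a pseudocount of 5 TPM the changes in hypoxia and osmotic stress were 0.69 and 0.67. Against the median of the other 6 libraries, in place of the control, they were 0.93 and 0.91, and the change in ER stress was -1.53.

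Birc3 and Icam1 did not pass 2-fold in any condition. Birc3, at chromosome 9 from 7848699 to 7873186, encodes cIAP2, a ubiquitin ligase of the TNF receptor complex that also takes part in the turnover of NIK. It was at 11.3 TPM in the control, 18.1 in glucose depletion, 14.9 in glutamine depletion, 13.6 in hypoxia, 23.0 in ER stress, 13.2 in oxidative stress and 11.8 in osmotic stress. ER stress stood highest at 2.05-fold the control on the TPM scale, with a log2 change of 0.97, and the value with a pseudocount of 0.1 TPM was 1.03. The control was the lowest library, as it was for Nfkb1. Icam1, at chromosome 9 from 21015985 to 21028817, encodes the adhesion molecule that leukocytes bind. Its TPM was 21.7 in the control, 14.6 in glucose depletion, 15.6 in glutamine depletion, 23.6 in hypoxia, 23.2 in ER stress, 13.1 in oxidative stress and 20.5 in osmotic stress. Icam1 was below the control in 4 of 6 conditions, most in oxidative stress with a log2 change of -0.69, and its largest log2 change upward was 0.12.

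**Figure D2:**
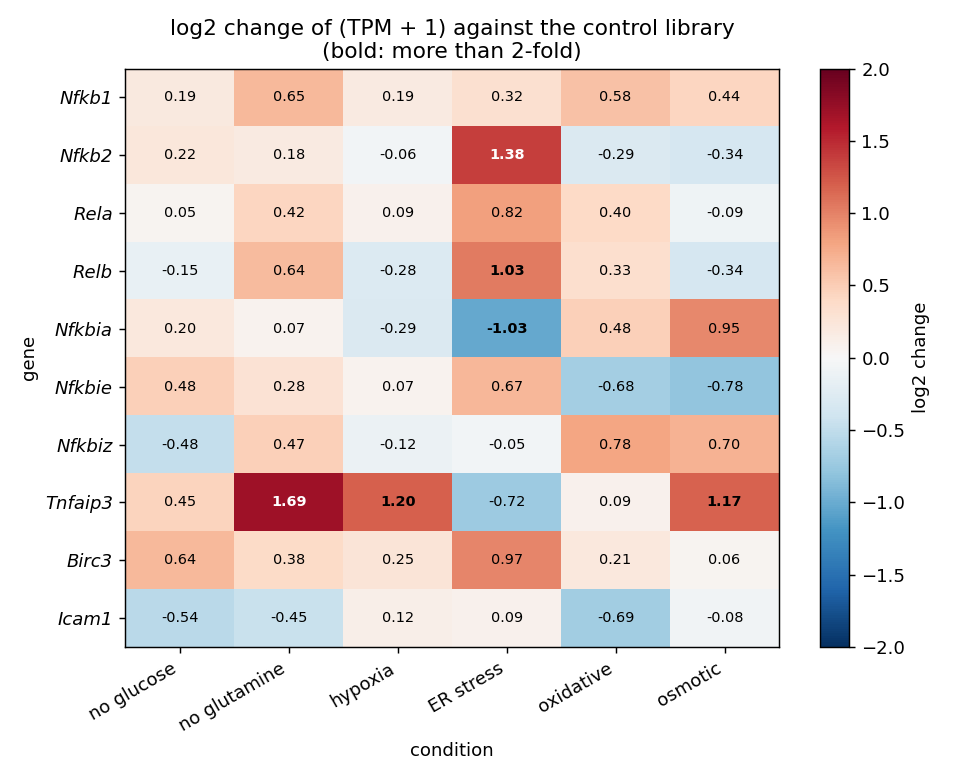
Log2 change of (TPM + 1) against the control library for the 10 genes (rows) in the 6 conditions (columns), red above and blue below the control, with 1 library behind each cell. Bold values are past 2-fold: Tnfaip3 in glutamine depletion, hypoxia and osmotic stress, and Nfkb2, Relb and Nfkbia in ER stress.

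By condition, few members passed 2-fold, and all changes share the same control library. In ER stress 2 of 10 members, Nfkb2 and Relb, were more than 2-fold higher, beside 8.60% of all genes tested, and 1 member, Nfkbia, was more than 2-fold lower, beside 11.0%. With so many genes past 2-fold in ER stress, these counts stand near the level of the whole table. ER stress was the highest library for 5 members (Nfkb2, Rela, Relb, Nfkbie and Birc3) and the lowest for 2 (Nfkbia and Tnfaip3), together 7 of 10. It was the highest or lowest library for 58.9% of the 12308 genes with 7 different values, so that this count is also near that of genes in general. The median log2 change of the members in ER stress was 0.50 against 0.00 for all genes, and it was 0.50 with the median of the other libraries as the reference.

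Glutamine depletion had 9 of 10 members above the control, all but Icam1, whereas 38.3% of all genes were above it. The median log2 change of the members was 0.40, against -0.09 for all genes. Other genes of the pathway, described below, did not share this. Of 63 that passed the filter, 35 were above the control and 28 below, with a median of 0.04. Tnfaip3 alone was more than 2-fold higher there, beside 3.21% of all genes, and no member was more than 2-fold lower, beside 3.21%. With the median of the other 6 libraries as the reference, 8 members were above it and the median was 0.30. At 1.5-fold, 3 members were higher, beside 7.47% of all genes. Elsewhere 7 members stood above the control in glucose depletion, in ER stress and in oxidative stress, 6 in hypoxia and 5 in osmotic stress. The shares of all genes above it were 44.5%, 49.9%, 32.6%, 42.8% and 36.7%, in the same order. A tilt of the members upward was therefore not particular to glutamine depletion, and all these counts rest on the 1 control.

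In glucose depletion no member passed 2-fold in either direction, beside 1.83% of genes higher and 2.41% lower. The largest change was that of Birc3, at 0.64. In hypoxia 1 member, Tnfaip3, was more than 2-fold higher, beside 3.57%, and none was lower, beside 2.64%. The other 9 members stayed within 1.5-fold of the control in hypoxia, with log2 changes from -0.29 to 0.25. Of all genes, 7.23% were more than 1.5-fold higher there and 8.10% more than 1.5-fold lower, so that most genes also stayed within it. In oxidative stress no member passed 2-fold, beside 3.94% of genes higher and 4.85% lower, and the largest changes were those of Nfkbiz and Icam1. In osmotic stress 1 member, Tnfaip3, was higher, beside 3.08%, and none was lower, beside 8.76%. The median log2 change of the members was 0.27 in oxidative stress, where all genes had a median of -0.16. With the median of the other 6 libraries as the reference it was 0.11, with 5 members above and 5 below. In osmotic stress it was -0.01, and 0.11 after centring on all genes, so that no direction can be given. Of the 11305 protein-coding genes alone, 1.89% were more than 2-fold higher in glutamine depletion, 1.93% in hypoxia, 1.41% in osmotic stress and 7.09% in ER stress.

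**Figure D3:**
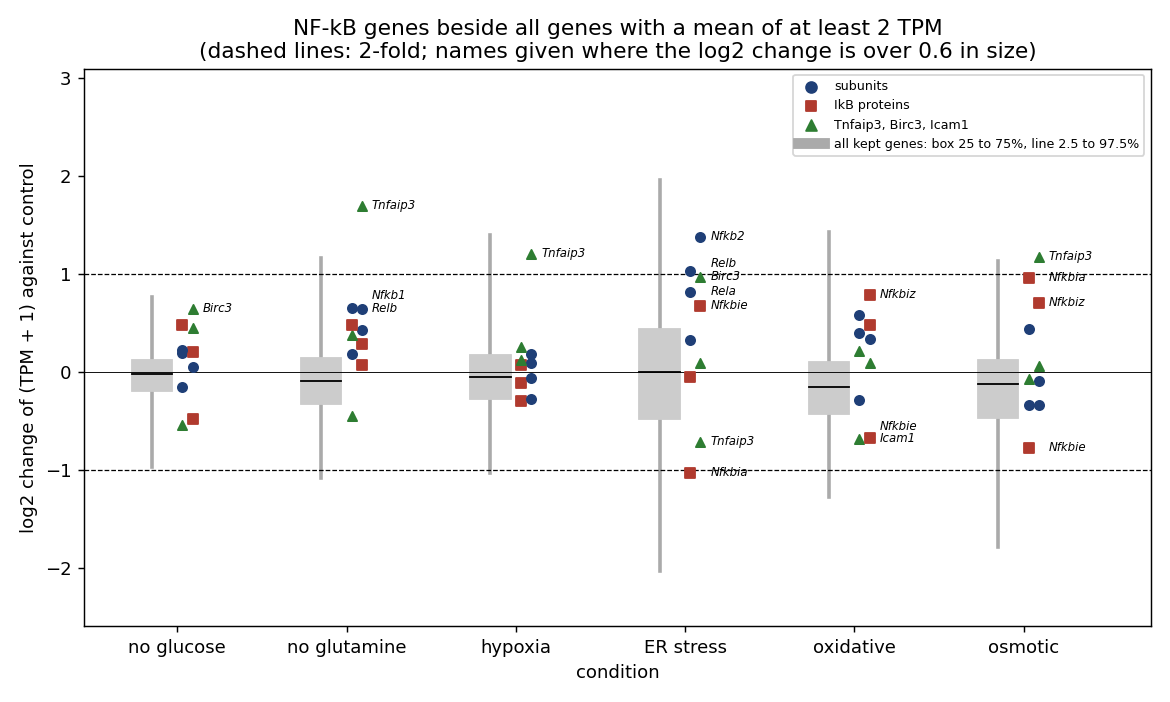
Log2 change of (TPM + 1) against the control in the 6 conditions, with the 10 NF-κB genes as coloured symbols beside the 12909 genes that passed the filter (grey box and line, percentiles as given in the key). In ER stress the members spread from -1.03 to 1.38, and the grey line is longest there too. In hypoxia all but Tnfaip3 lie close to 0, as do most of all genes.

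The 2 treatments of 3 hours were set against each other directly, which does not use the control. Tnfaip3 was at 2.79 TPM in oxidative stress and 7.07 in osmotic stress, a log2 difference of -1.09, and 3.38% of the 12909 genes had a lower one. The other 9 members differed by less than 2-fold between these libraries. Nfkbia and Icam1 were lower in oxidative stress than in osmotic stress, by differences of -0.47 and -0.61, and Relb was higher by 0.67. Nfkb2, Nfkbie and Nfkbiz differed by 0.05 to 0.10.

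Ratios within a library are free of the control and of any scaling between libraries. In the control, Nfkb2 and Nfkb1 were almost equal, at a ratio of TPM of 1.02. The ratio was 2.14 in ER stress, 0.545 in oxidative stress, 0.583 in osmotic stress and between 0.727 and 1.04 in the other 3 conditions. Nfkb2 over Nfkbia was 0.862 in the control, 4.81 in ER stress and 0.344 in osmotic stress, and ER stress and osmotic stress are the ends of its range. Rela over Nfkbia ran from 0.505 in osmotic stress through 1.06 in the control to 3.96 in ER stress. The ratios over Nfkbia share a denominator that was lowest in ER stress and highest in osmotic stress. Their ends therefore restate the levels given above and are not separate observations. Nfkbie stood below Nfkbia in every library, at 0.0940 of the Nfkbia level in the control, 0.0220 in osmotic stress and 0.348 in ER stress. Birc3 over Tnfaip3, a pair of genes for ubiquitin enzymes of the same receptor complex, was 4.37 in the control, 19.7 in ER stress and 1.41 in glutamine depletion. The ER stress ratio rests on Tnfaip3 at 1.17 TPM, and no pseudocount was added to these ratios.

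**Figure D4:**
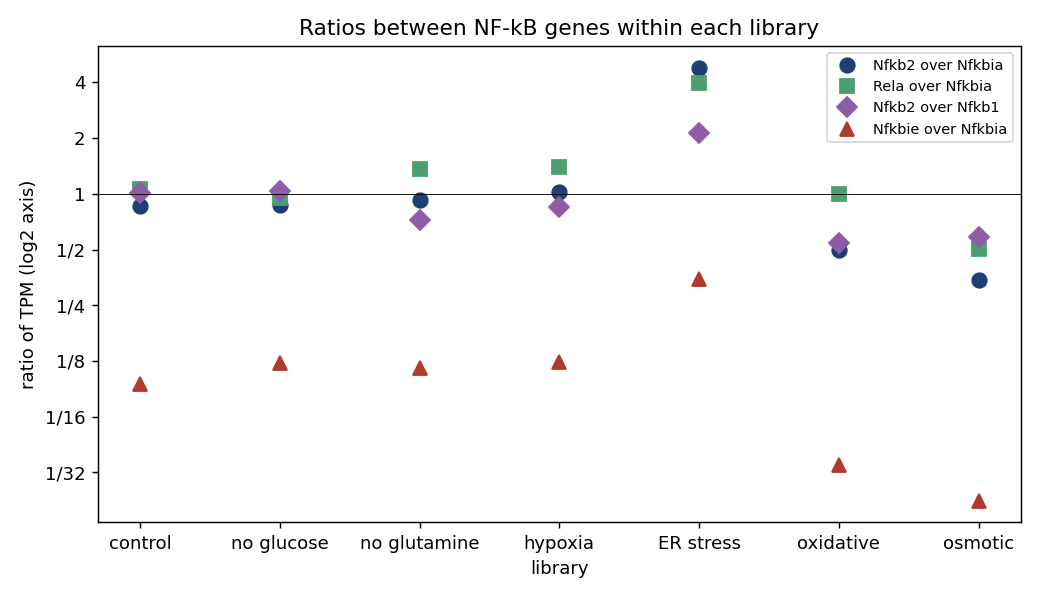
Ratio of TPM between NF-κB genes within each of the 7 libraries, on a log2 axis, 1 symbol per pair of genes. All 4 ratios are highest in ER stress, where Nfkb2 over Nfkbia is 4.81, and Nfkb2 over Nfkbia is lowest in osmotic stress at 0.344. The ratios over Nfkbia share that denominator, which is lowest in ER stress, so they are not separate observations.

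The wider pathway was read from 8 lists that hold the members and 83 other genes, of which 63 passed the filter. More than 2-fold higher and lower were 1 and 0 of the 63 in glucose depletion, 2 and 1 in glutamine depletion, 1 and 1 in hypoxia, 4 and 6 in ER stress, 2 and 5 in oxidative stress and 2 and 6 in osmotic stress. In ER stress this is 6.35% higher and 9.52% lower, beside 8.60% and 11.0% of all genes, and their median log2 change was 0.06. In oxidative stress it is 3.17% and 7.94%, beside 3.94% and 4.85%, and in osmotic stress 3.17% and 9.52%, beside 3.08% and 8.76%. In glutamine depletion it is 3.17% and 1.59%, beside 3.21% in each direction, and in hypoxia 1.59% in each direction, beside 3.57% and 2.64%. In glucose depletion 1.59% were higher, beside 1.83%, and none lower, beside 2.41%.

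The upstream ligands were low. Tnf was at 0.140 TPM at most, Il1a at 0.0961 at most, and Il1b was listed at 0 in all 7 libraries. Of 9 ligands only Tnfsf11 (RANKL) and Tnfsf12 (TWEAK) passed the filter. Tnfsf12 was at 35.3 TPM in the control and between 12.9 and 30.9 in the 6 conditions, with a log2 change of -1.38 in ER stress. The receptors ranged in the control from 1.35 TPM for Cd40 to 150 for Tnfrsf1a and 368 for Tnfrsf12a, the receptor of TWEAK. Of 11 receptors, Cd40 was higher in ER stress, at 6.84 TPM against 1.35, while Il1r1, the IL-1 receptor, was lower there, at 7.11 TPM against 21.3 (log2 change -1.46). Cd40 averaged 2.02 TPM and passed the filter only through ER stress, since every other library held at most 1.96 TPM. It is among the 4 genes counted above as more than 2-fold higher there. Tlr3 was lower in oxidative stress, at 1.56 TPM against 4.59.

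Among the 10 kinase and scaffold genes, the core subunits of the IκB kinase stayed within 1.5-fold in every condition, with log2 changes of -0.41 to 0.11 for Chuk, -0.21 to 0.07 for Ikbkb and -0.37 to 0.50 for Ikbkg. Map3k14, which encodes NIK, was at 6.29 TPM in the control, 5.78 in ER stress and 1.44 in osmotic stress, where its log2 change of -1.58 was the largest of the list. Tab1 was also lower in osmotic stress (-1.25), Tbk1 in ER stress (-1.06) and Ikbke in oxidative stress (-1.06). The IκB relatives outside the members, Nfkbib and Bcl3, went opposite ways in ER stress. Nfkbib, the gene of IκBβ, was at 71.3 TPM against 27.9 in the control (1.32), and Bcl3, a nuclear coactivator of p50 and p52, at 2.70 against 8.60 (-1.37). Bcl3 was lower in osmotic stress as well (-1.19). Rel, the remaining subunit gene, was at 3.07 TPM in the control, with a log2 change of -0.89 in osmotic stress and within 0.25 of 0 elsewhere. Of the adaptors, Traf5 was lower in ER stress (-1.10) and osmotic stress (-1.28) and Rnf31, a subunit of the linear ubiquitin ligase, in osmotic stress (-1.15). Birc2 (cIAP1) did not pass 2-fold in any condition. Rnf11, a cofactor of A20, was the only other feedback gene past 2-fold, in ER stress (1.10).

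Other targets of NF-κB went in both directions. Of 27 effector targets beside Icam1, 16 passed the filter. Ptgs2, which encodes cyclooxygenase-2, was at 83.8 TPM in the control, 667 in glutamine depletion, 489 in oxidative stress and 420 in osmotic stress. Ier3, an early response gene, was at 52.9 TPM in the control, 169 in hypoxia, 209 in oxidative stress and 347 in osmotic stress. Ccl20, a chemokine, went from 1.75 TPM in the control to 35.3 in ER stress, 10.2 in glutamine depletion and 5.95 in glucose depletion. Irf1, an interferon regulatory factor, was lower in glutamine depletion, ER stress and osmotic stress, by log2 changes of -1.32, -1.90 and -2.66. Genes named after their values were seen are Cxcl1, Cxcl5 and Cfb, lower in oxidative stress (-1.36, -1.64 and -1.02), and Ccl2, lower in hypoxia (-1.04). Vcam1 and Sod2, often used as readouts of NF-κB along with Icam1, stayed within 2-fold in all 6 conditions, with log2 changes of -0.81 to 0.07 and -0.45 to -0.03. Il6 did not pass the filter, at 0.200 to 4.80 TPM. Nor did Cxcl10, Saa3, Lcn2 and C3, which were highest in ER stress, at 4.65, 3.76, 2.62 and 5.60 TPM. In the control they were at 0.150, 0.0289, 0 and 1.64 TPM. These are low levels, and the genes were named after their values were seen. Sele and Cd83, also short of the filter, were below the control in ER stress.

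**Figure D5:**
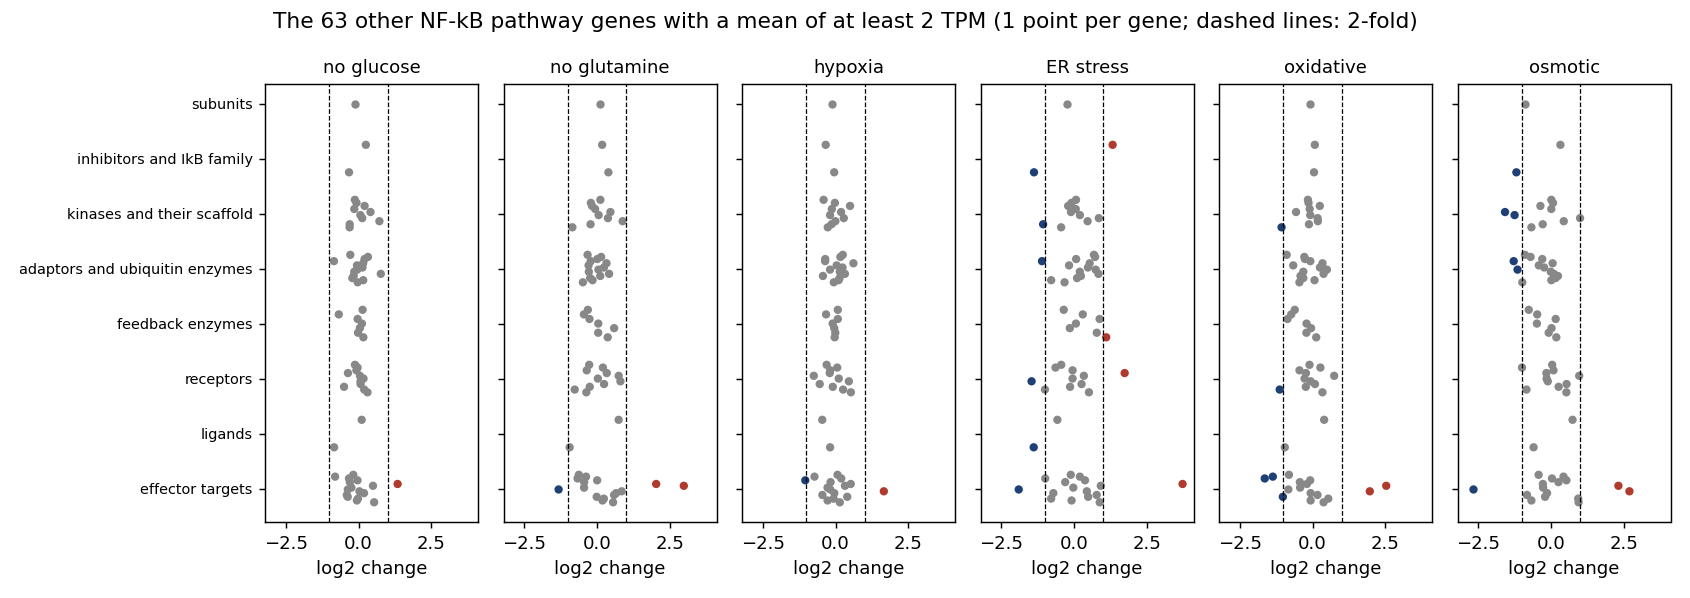
Log2 change of (TPM + 1) against the control for the 63 other pathway genes that passed the filter, grouped by list (vertical axis) in the 6 conditions (panels), with 1 point per gene in red where more than 2-fold higher and blue where more than 2-fold lower. Most points lie between the 2-fold lines, and in ER stress 4 are higher and 6 lower.

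The genes whose levels over the 7 libraries were most like those of each member were found by the root mean square (RMS) difference of log2(TPM + 1), after each gene's mean was removed. For Nfkb2 these were Trnt1 (RMS difference 0.0879), Tars and Ddx50, which were all highest in ER stress, at 98.0, 279 and 183 TPM. For Relb they were Sdad1, Wipi2 and Paxbp1, at RMS differences of 0.0971 to 0.115. For Nfkbia they were Adamts7, Mmp3 and Angpt2 (0.101 to 0.181), of which Mmp3 was itself listed as a target, at 9.69 TPM in ER stress, 17.4 in the control and 34.2 in osmotic stress. Nfkbie was most like Cep162, Fam212a and Slc16a6 (0.107 to 0.138), and Nfkbiz most like Syt12, Ccdc3 and Plcb1 (0.162 to 0.194). For Tnfaip3 the nearest genes, S100b, Nedd9 and Cyp26b1, were less alike (0.375 to 0.386). No member was among the 3 genes nearest to another member.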

How the data were processed

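RNA from 7 MEF cultures was sequenced on a NextSeq instrument (paired-end, poly(A)-selected stranded libraries). The deposited values are TPM per gene, which the authors obtained with kallisto 0.43.1 (version from the submitters' processing notes) against Ensembl release 90 transcripts of GRCm38 and summed over the transcripts of a gene. The paper states that kallisto was run at its default settings and names no strand option, so reads of overlapping antisense genes may not be separated. Nothing was realigned here. Depth is unknown, and with 1 library per condition no test was run.

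Genes that averaged 2 TPM or more were kept, and changes are differences of log2(TPM + 1) from the control, counted past 2-fold as in the study. Groups were taken from the treatment labels. Computation used Python 3.11.15, numpy 2.4.6 and pandas 2.3.3, and was tested on simulated data. Gene positions are from GENCODE M21. Named genes are the 10 members, the listed pathway genes past 2-fold (at most 4 per list, by largest change) and the 3 genes most alike to each member whose log2(TPM + 1) ranged over at least 1. Pathway genes named without passing 2-fold or the filter were picked with their values known. The members and lists were chosen with earlier results of these data known. Alternatives were the pseudocount (0.1 and 5 TPM), the filter (none and 10 TPM), the threshold (1.5-fold and 3-fold), centring, removal of mitochondrially encoded genes, the reference library and, chosen after seeing the data, protein-coding genes alone. The κB consensus was searched as 3 G, a purine, any 2 bases, 2 pyrimidines and 2 C.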

Additional observations from a re-analysis of the deposited data

How the results depend on the processing

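Of 120 counts of members past the threshold under an alternative, 25 moved by more than 1.5 times and 95 did not, and no log2 change past 2-fold took the opposite sign. At 1.5-fold, 1 member was higher in glucose depletion (3.47% of all genes), 3 in glutamine depletion (7.47%), 5 in ER stress (19.0%), 3 in osmotic stress (6.56%) and 1 in oxidative stress (7.27%), and 2 were lower in ER stress (21.3%), 2 in oxidative stress (16.2%) and, in osmotic stress, 1 (19.5%). At 3-fold, 0 were higher in hypoxia (2.14% of all genes), ER stress (3.39%) and osmotic stress (1.65%), and 0 were lower in ER stress (4.31%). A filter of 10 TPM left 0 higher in glutamine depletion (2.43%), hypoxia (2.00%) and osmotic stress (1.79%), because it removes Tnfaip3. A pseudocount of 5 TPM left 0 higher in hypoxia (2.33%) and osmotic stress (1.90%). In ER stress it left 1 higher (5.80%) and 0 lower (6.03%). With a pseudocount of 0.1 TPM, 2 were lower in ER stress (13.2%) and 1 in osmotic stress (11.3%). It also gave 3 higher in ER stress (9.67%) in place of 2, with Birc3 added. Centring gave 2 higher in osmotic stress (3.64%). With the median of the other 6 libraries as the reference, 0 were higher in hypoxia (3.83%) and in osmotic stress (2.81%). In that setting 2 were lower in ER stress (8.75%), and 12 of 60 log2 changes changed sign. The largest of these was 0.45 in size against the control, that of Tnfaip3 in glucose depletion. Centring changed the sign of 2 of 60, both under 0.1. No filter, removal of mitochondrially encoded genes and protein-coding genes alone moved no count. No paired analysis was possible because each condition has 1 library and no test was run, and for the same reason no replicate could be left out. Depth is unknown, which limits Tnfaip3 and Nfkbie most, at a few TPM.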
